A study of Mus musculus with 24 samples.

Results

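The 8 genes described here code for the core of the endothelial adherens junction, and they were taken by symbol from the gene table of the series: Cdh5, Pecam1, Cdh2, Ctnna1, Ctnnb1, Ctnnd1, Jup and Ptprb. They are 8 of 53465 listed genes, and all 8 were among the 15493 genes that passed a filter on low counts (at least 5 reads in 6 libraries of either genotype). RNA was sequenced from CD31-positive cells sorted from the brains of single C57BL/6J mice of both sexes, 12 of genotype Bmal1fl/fl (controls) and 12 of genotype Bmal1fl/fl; Tie2cre (mutants). Both genotypes carry the floxed exon of Bmal1, the clock gene listed as Arntl, and the mutants lose it wherever the Tie2 promoter has driven Cre, that is in endothelium and in some blood cells. Sampling ran from ZT2 to ZT22 in steps of 4 h (lights on at ZT0 and off at ZT12), with 2 mice per genotype at every step. The age of these mice is not given in the sources used here, and CD90-positive cells were depleted before the sort. The RNA is from the whole of each sorted population, so that fewer cells of a type and less RNA per cell cannot be told apart.

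Adherens junctions hold neighbouring endothelial cells together. VE-cadherin (Cdh5) molecules of adjoining cells bind each other outside the cell, and inside the cell their tails bind p120-catenin (Ctnnd1), which keeps the cadherin at the surface, and either beta-catenin (Ctnnb1) or its close relative plakoglobin (Jup). These in turn bind alpha-catenin (Ctnna1), which couples the complex to actin. VE-PTP (Ptprb) is a phosphatase of endothelial cells that acts on VE-cadherin and on the receptor Tie2, N-cadherin (Cdh2) joins endothelial cells to pericytes, and PECAM-1 (Pecam1, the CD31 antigen) is an adhesion molecule of the immunoglobulin family that lies at the same cell borders. Because cells were sorted on CD31, a gate on the Pecam1 protein was part of the selection of every sample.

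The libraries held 6136404 to 6648311 normalized reads. Arntl had 1 to 468 reads in controls, with the fewest at ZT10 and ZT14 (1 to 22), and 81 to 354 reads in mutants. The count covers the whole gene, including exons outside the deleted part, so it does not check the deletion. The 11 endothelial markers other than the members (Cldn5, Flt1, Slco1a4, Slc2a1, Ly6c1, Tie1, Emcn, Erg, Egfl7, Vwf and Abcb1a) took 1.14% to 1.83% of the reads, more than each of the 8 lists for other cell types (at most 1.04%, for ependyma and choroid plexus in 1 control library). The 8 libraries of ZT6 and ZT18 stood apart from the other 16. They carry 1 unbroken run of library numbers, but the numbers continue from it without a gap into those of other time points. The labels name no batch, so the numbers alone do not set these libraries apart. Their mitochondrial share was 2.68% to 3.90% against 5.78% to 17.4%. The summed microglia and macrophage markers (9 of 9 genes passed the filter) took 0.0195% to 0.0321% against 0.169% to 0.455% of reads. The endothelial markers took 1.71% to 1.83% in these 8 libraries and 1.14% to 1.71% in the other 16. Time of day and library series (the place in the run of numbers) cannot be told apart for these 2 time points.

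The level of each member was compared per kilobase of exon, since longer transcripts give more reads. Ptprb was highest, with 1690 ± 295 reads per kb in controls and 1780 ± 242 in mutants (mean ± SD, n = 12 mice each). Cdh5 followed with 1481 ± 361 and 1533 ± 288 reads per kb, Pecam1 with 1188 ± 298 and 1272 ± 208, and Ctnnb1 with 1093 ± 221 and 1077 ± 113. The remaining members lay lower, at 457 ± 62.6 and 460 ± 81.5 reads per kb for Ctnna1 and 170 ± 31.1 and 198 ± 45.9 for Jup. Cdh2 had 44.7 ± 6.99 and 43.4 ± 10.3 reads per kb, and Ctnnd1 had 44.1 ± 10.0 and 48.0 ± 6.00. VE-cadherin mRNA was thus above N-cadherin mRNA in every library, and beta-catenin above plakoglobin.

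Of the 14 neighbour pairs in this order (7 in each genotype), 11 differed by an exact two-sided permutation test over sign patterns of the log2 ratio within libraries (Benjamini-Hochberg adjusted over the 14 pairs). Ptprb exceeded Cdh5 in 10 of 12 control libraries (adjusted p = 0.00497, exact permutation test) and in 11 of 12 mutant libraries (adjusted p = 0.00342, same test). Pecam1 exceeded Ctnnb1 in 9 of 12 controls (adjusted p = 0.103, exact permutation test) and in 12 of 12 mutants (adjusted p = 0.000760, same test), and whether that ratio differed between genotypes was not tested. Cdh2 and Ctnnd1 were not separated in controls (adjusted p = 0.787, exact permutation test, Cdh2 higher in 6 of 12 libraries) or in mutants (adjusted p = 0.121, same test, Ctnnd1 higher in 9 of 12). The order turned on the choice of length, at its upper and its lower end. Pecam1 came first per kb of the longest transcript (3441 bases for it, against 6228 bases of exon in all its transcripts). It had 2150 ± 539 reads per kb in controls and 2302 ± 377 in mutants. On that length Cdh2 exceeded Ctnnd1 in 11 of 12 controls (adjusted p = 0.00273, exact permutation test) and in 10 of 12 mutants (adjusted p = 0.00621, same test). Ctnnb1 and Cdh5 were then not separated in controls (adjusted p = 0.736, exact permutation test) or in mutants (adjusted p = 0.365, same test).

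**Figure D1:**
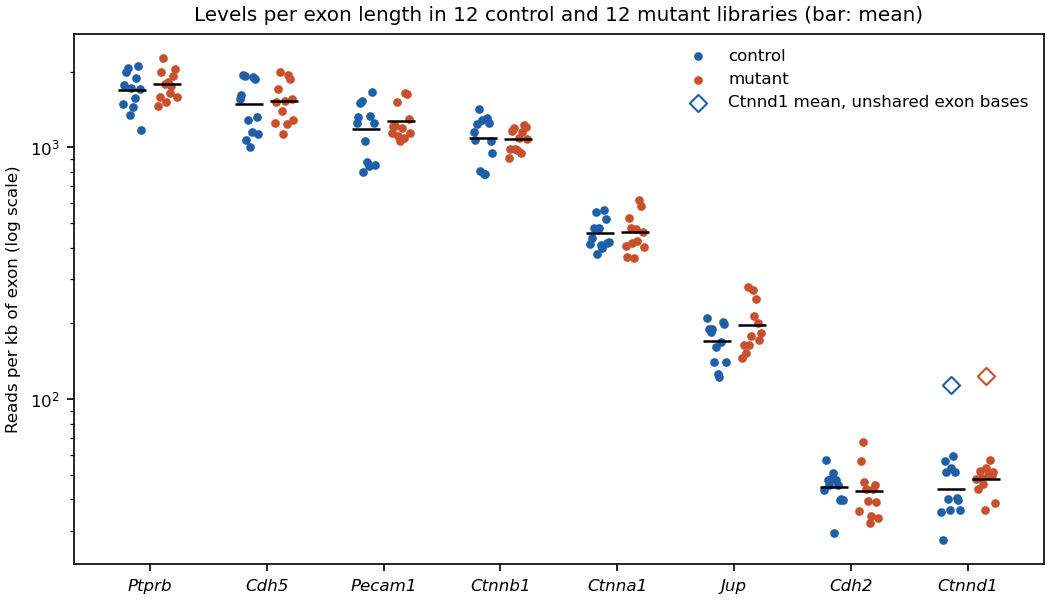
Reads per kb of exon (log scale) of the 8 members in 12 control (blue) and 12 mutant (orange) libraries. Points are libraries, bars are means, and diamonds give the mean of Ctnnd1 per kb of the exon bases it does not share with another gene on the same strand. Ptprb, Cdh5, Pecam1 and Ctnnb1 lie near or above 1000 reads per kb, and Cdh2 and Ctnnd1 lie near 45.

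The p120-catenin level depends on the gene model. In the GENCODE vM21 annotation of GRCm38, 61.2% of the exon bases of Ctnnd1 (chr2:84600071-84650765, minus strand) are also exons of Gm28635 on the same strand, and Gm28635 is listed at 0 reads in all 24 libraries. How the authors' counting treated reads in shared exons is not given in the sources used here. Per kb of the exon bases that are its own, Ctnnd1 had 114 ± 25.9 reads in controls and 124 ± 15.5 in mutants, and it then exceeded Cdh2 in 12 of 12 libraries of each genotype (adjusted p = 0.000684 in each, exact permutation test). The comparison of Ctnnd1 between groups of libraries uses one gene model throughout and is not changed by this length. Of the exon bases of Ctnnb1 (chr9:120929216-120960507, plus strand), 14.6% lie opposite Ulk4, and the libraries were made with a kit that keeps strand. Cdh5 (chr8:104101625-104144511, plus strand), Pecam1 (chr11:106654217-106750628, minus strand), Jup (chr11:100368958-100397763, minus strand) and Ptprb (chr10:116275523-116389535, plus strand) share no exon bases with another gene of that annotation. Cdh2 lies on chr18:16588877-16809246 (minus strand) and Ctnna1 on chr18:35118859-35254779 (plus strand), where 1.48% of the exon bases of Ctnna1 lie opposite Lrrtm2.

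Loss of Bmal1 in the Tie2 lineage was compared first for the level of each member over all times of day. Cdh5 had 4220 to 8139 reads in controls (median 6048) and 4742 to 8342 in mutants (median 6399), and the 2 ranges overlapped almost fully. Pecam1 had 4971 to 10290 reads in controls (median 7780) and 6609 to 10250 in mutants (median 7505). Ptprb had 15682 to 28064 reads in controls (median 22873) and 19391 to 30234 in mutants (median 23537). For these membrane proteins the mutant libraries lay within the control range or just above it. Cdh2 had 238 to 464 reads in controls (median 367) and 261 to 545 in mutants (median 336). Among the catenins, Ctnna1 had 2433 to 3634 (median 2766) and 2329 to 3970 reads (median 2845), and Ctnnb1 had 4067 to 7407 (median 5770) and 4717 to 6360 (median 5618). Ctnnd1 had 202 to 436 reads in controls (median 296) and 266 to 421 in mutants (median 362). Jup had 786 to 1353 reads in controls (median 1141) and 941 to 1792 in mutants (median 1164), with 4 mutant mice above the highest control.

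None of the 8 members passed an adjusted p of 0.05 in edgeR's quasi-likelihood test of genotype with time point as a factor, where 0.271% of all genes tested did (42 of 15493). DESeq2 called 0 of 8 as well. At an unadjusted p under 0.05 stood 1 member, Jup, against 6.95% of all genes. The log2 difference between mutants and controls was 0.22 for Jup (SE 0.10, 95% interval 0.00063 to 0.44, adjusted p = 0.696). It was 0.07 for Cdh5 (SE 0.07, interval -0.08 to 0.21) and 0.12 for Pecam1 (SE 0.07, interval -0.04 to 0.27), with upper bounds of 1.16-fold and 1.21-fold. The difference was 0.08 for Ptprb (interval -0.07 to 0.23), -0.06 for Cdh2 (interval -0.29 to 0.17) and 0.14 for Ctnnd1 (interval -0.07 to 0.36). For Ctnna1 it was 0.00020 (interval -0.14 to 0.14) and for Ctnnb1 -0.0088 (interval -0.16 to 0.14), and both of these turned sign with the scaling or filter. The adjusted p-values of the 8 members lay between 0.696 and 1.00, the median of their differences was 0.07, and that over all genes tested was 0.0033.

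Ratios within a library do not depend on scaling between libraries, and none of 7 ratios between binding partners or relatives differed between genotypes. The log2 ratio of Jup to Ctnnb1, the 2 catenins that compete for the same site on cadherins, was -2.37 ± 0.19 in controls and -2.16 ± 0.29 in mutants (mean ± SD, n = 12 each). The difference of 0.21 had p = 0.0553 by an exact two-sided permutation of genotype within time points, and 0.387 after adjustment over the 7 ratios. The log2 ratio of Pecam1 to Cdh5 was 0.25 ± 0.12 and 0.30 ± 0.12, that of Ctnnb1 to Cdh5 -0.12 ± 0.18 and -0.19 ± 0.17, and that of Ptprb to Cdh5 1.88 ± 0.20 and 1.89 ± 0.17. The log2 ratio of Ctnna1 to Ctnnb1, partners in 1 complex, was -0.93 ± 0.17 and -0.93 ± 0.16. That of Cdh2 to Cdh5 was -4.08 ± 0.35 and -4.21 ± 0.29 (a difference of -0.13, which was -0.29 without the ZT6 and ZT18 libraries, with p = 0.0262 and adjusted p = 0.184 by the exact permutation), and that of Ctnnd1 to Cdh5 -4.26 ± 0.47 and -4.18 ± 0.20. These 7 ratios are of reads and not of reads per length, and their adjusted p-values lay between 0.387 and 0.972.

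Time of day was the next question. By meta2d, which combines the rhythm tests JTK_CYCLE and Lomb-Scargle at a period of 24 h, none of the 8 members was rhythmic in controls or in mutants at the study's threshold of q under 0.6. That threshold was met by 0.310% of genes in controls (48 of 15493) and 0.0387% in mutants (6 of 15493). An unadjusted p under 0.05 was reached by 2.43% of genes in controls and 2.27% in mutants, and by no member in either. The amplitude of a fitted cosine relative to the mean was 1.04% (Ctnna1) to 17.3% (Jup) in controls and 2.00% (Ptprb) to 17.4% (Cdh2) in mutants. The lowest p-value among members was that of Jup in controls, 0.0639 with a fitted peak at ZT1.3. In mutants the fitted peak of Jup was at ZT14.6 (p = 0.448).

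Ctnnd1 reads in controls were 261 and 202 (ZT2), 418 and 376 (ZT6), 294 and 266 (ZT10), 389 and 436 (ZT14), 377 and 298 (ZT18), then 292 and 266 (ZT22). Its mutants had 353 and 322 (ZT2), 380 and 356 (ZT6), 337 and 266 (ZT10), 391 and 367 (ZT14), 421 and 367 (ZT18), then 375 and 284 (ZT22). The ZT14 libraries of this gene were thus as high as those of ZT6 and ZT18, unlike those of Cdh5, and the fitted amplitude was 16.6% in controls (p = 0.372) and 5.87% in mutants (p = 1.00).

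A course over the day need not be a cosine, and the 6 time points were therefore also compared with 5 degrees of freedom over both genotypes. Cdh5 reads in the 2 control mice were 6531 and 6793 (ZT2), 8139 and 8105 (ZT6), 4513 and 5420 (ZT10), 4220 and 4854 (ZT14), 7970 and 7831 (ZT18), then 5564 and 4740 (ZT22). The mutants had 5277 and 6383 (ZT2), 7150 and 8342 (ZT6), 5884 and 4742 (ZT10), 6415 and 5213 (ZT14), 8131 and 7833 (ZT18), then 6554 and 5402 (ZT22). The 8 libraries of ZT6 and ZT18 were the 8 highest of 24 for this gene. Pecam1 reads in controls were 7804 and 8194 (ZT2), 9381 and 9524 (ZT6), 4971 and 6618 (ZT10), 5441 and 5258 (ZT14), 8270 and 10290 (ZT18), then 7756 and 5289 (ZT22). Those in mutants were 7122 and 7589 (ZT2), 7591 and 9410 (ZT6), 6927 and 6609 (ZT10), 7420 and 6808 (ZT14), 10250 and 10178 (ZT18), then 8060 and 7100 (ZT22). Here 4 libraries of other times reached into the range of ZT6 and ZT18, both ZT2 controls and 1 ZT22 library of each genotype. By edgeR's test, 5 of 8 members differed between time points, while 13.4% of all genes did: Cdh5 (adjusted p = 4.92e-05), Pecam1 (0.000568), Ctnna1 (0.00229), Ptprb (0.0455) and Ctnnb1 (0.0483). Ctnnd1 (adjusted p = 0.0574), Cdh2 (0.315) and Jup (0.636) did not pass. With 1 library left out at a time, Cdh5, Pecam1 and Ctnna1 passed in 24 of 24 cases, Ptprb in 8 and Ctnnb1 in 6, and DESeq2 size factors or a stricter filter lost both of the latter. DESeq2 called 6 members, the same 5 and Ctnnd1 (adjusted p = 0.0202), and 18.2% of all genes. With the replicate number as a block in edgeR 4 were called, Cdh5, Pecam1, Ctnna1 and Ctnnd1 (adjusted p = 0.0359), and 13.4% of all genes. Without the ZT6 and ZT18 libraries, 0 of 8 members passed the edgeR test, with 1 (Ctnnd1, p = 0.0150) at an unadjusted p under 0.05, and 1.14% of all genes passed. With the i5 index of the library barcode as a covariate 0 of 8 passed as well (adjusted p from 0.0551 for Ctnnd1 to 0.899 for Cdh2), 4 had an unadjusted p under 0.05, and 6.72% of all genes passed.

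**Figure D2:**
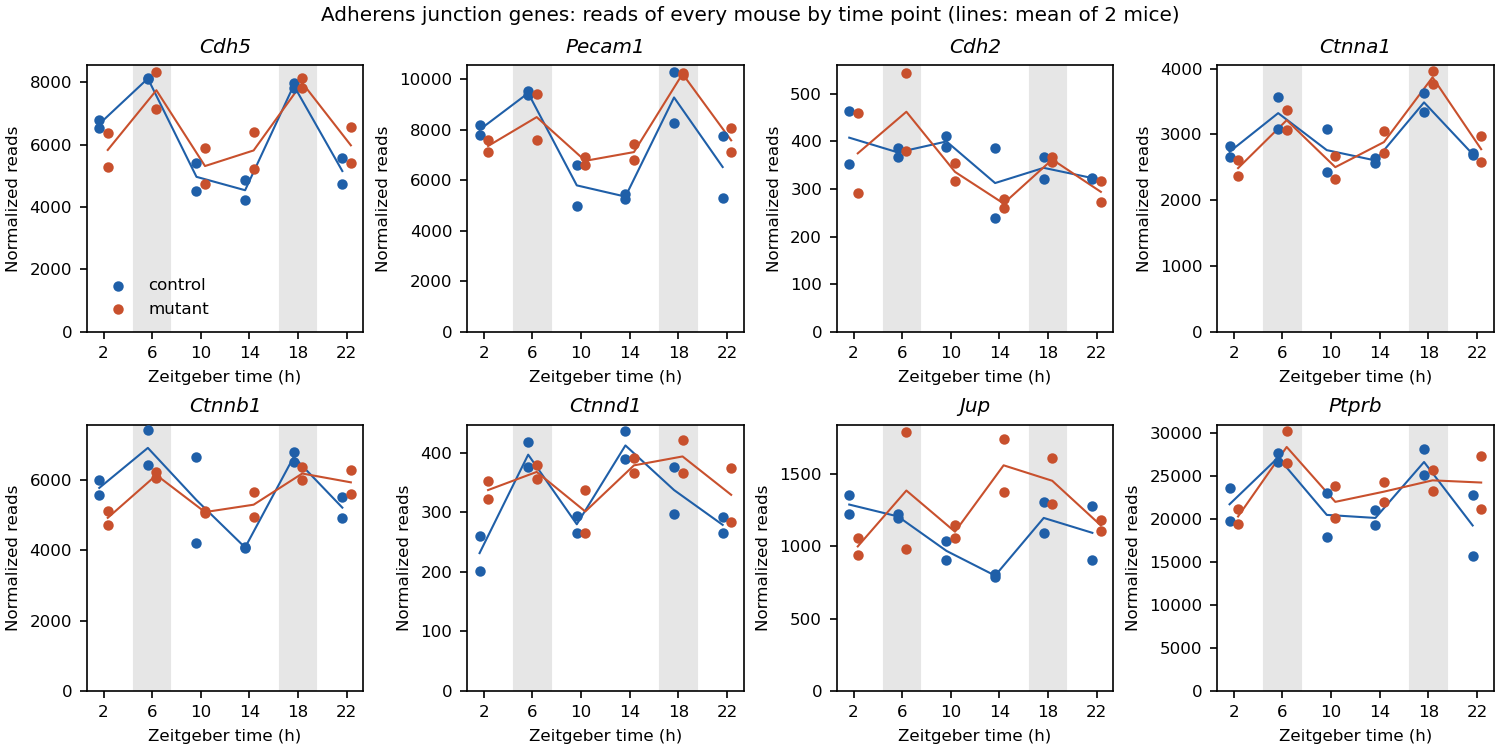
Normalized reads (linear axis from 0) of the 8 members against zeitgeber time in hours. Each point is 1 mouse, blue for controls and orange for mutants, lines join the means of 2 mice, and grey bands mark the time points ZT6 and ZT18, whose 8 libraries carry 1 series of numbers. Cdh5 reaches 7150 to 8342 reads in the grey bands and 4220 to 6793 outside them, while Jup at ZT14 has 808 and 786 reads in controls and 1742 and 1378 in mutants.

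The 8 libraries of ZT6 and ZT18 were then set against the other 16. Cdh5 had 7150 to 8342 reads (median 8038) against 4220 to 6793 (median 5411), with no overlap, and Ctnna1 had 3065 to 3970 (median 3469) against 2329 to 3088 (median 2664). Pecam1 had 7591 to 10290 reads (median 9467) against 4971 to 8194 (median 7014), and 4 of the 16 reached the lowest of the 8. Ctnnb1 had 6000 to 7407 reads (median 6385) against 4067 to 6652 (median 5114), and Ptprb had 23275 to 30234 (median 26528) against 15682 to 27283 (median 21150). For Ctnnd1 (298 to 421 against 202 to 436 reads), Cdh2 (322 to 545 against 238 to 464) and Jup (979 to 1792 against 786 to 1742), 8, 9 and 11 of the 16 lay within the range of the 8 or above it. Scaled to total reads, Cdh5 and Ctnna1 were 2 of 45 genes whose 8 values all lay above the other 16, 0.290% of genes tested, while 348 genes, none of them a member, lay below in all 8. By edgeR's test, 5 of 8 members were higher in the ZT6 and ZT18 libraries and 0 lower, against 5.85% of all genes higher and 10.9% lower. The log2 difference was 0.53 for Cdh5 (SE 0.08, adjusted p = 2.71e-06), 0.47 for Pecam1 (SE 0.08, adjusted p = 7.06e-05) and 0.38 for Ctnna1 (SE 0.07, adjusted p = 0.000171). It was 0.32 for Ptprb (SE 0.08, adjusted p = 0.00309) and 0.32 for Ctnnb1 (SE 0.08, adjusted p = 0.00325). Jup (0.24, SE 0.11, adjusted p = 0.141), Ctnnd1 (0.23, SE 0.12, adjusted p = 0.221) and Cdh2 (0.20, SE 0.12, adjusted p = 0.299) were not called. The median of the 8 members was 0.32 and that over all genes was -0.0061.

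Other endothelial genes moved in the same direction in these libraries. The summed reads of the 11 other endothelial markers per total reads were 0.34 higher on the log2 scale in the ZT6 and ZT18 libraries. Set against that sum, the log2 difference of Cdh5 was 0.24 (-3.79 ± 0.08 against -4.03 ± 0.23, mean ± SD, n = 8 and 16), that of Pecam1 was 0.18, and those of the other 6 members lay between -0.09 (Cdh2) and 0.08 (Ctnna1). Relative to the markers, the 8 values of Cdh5 (-3.94 to -3.69) and the 16 others (-4.46 to -3.71) overlapped. Markers of other cell types moved too, with astrocyte markers at 0.164% to 0.238% of reads in the 8 libraries against 0.261% to 0.473%, oligodendrocyte markers at 0.0363% to 0.0728% against 0.0845% to 0.273%, and pericyte and smooth muscle markers at 0.260% to 0.418% against 0.166% to 0.325%. Their part in the differences of the members was not tested. The 7 log2 ratios between members were -0.30 ± 0.10 in the 8 libraries and -0.08 ± 0.16 in the 16 for Ctnnb1 to Cdh5 (mean ± SD), and 1.74 ± 0.12 and 1.95 ± 0.17 for Ptprb to Cdh5. They were -4.37 ± 0.27 and -4.03 ± 0.29 for Cdh2 to Cdh5, -4.41 ± 0.16 and -4.12 ± 0.40 for Ctnnd1 to Cdh5, and 0.23 ± 0.13 and 0.30 ± 0.12 for Pecam1 to Cdh5. Those among catenins were -0.90 ± 0.16 and -0.95 ± 0.17 for Ctnna1 to Ctnnb1 and -2.32 ± 0.32 and -2.24 ± 0.24 for Jup to Ctnnb1, and in all 7 the 2 ranges overlapped.

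**Figure D3:**
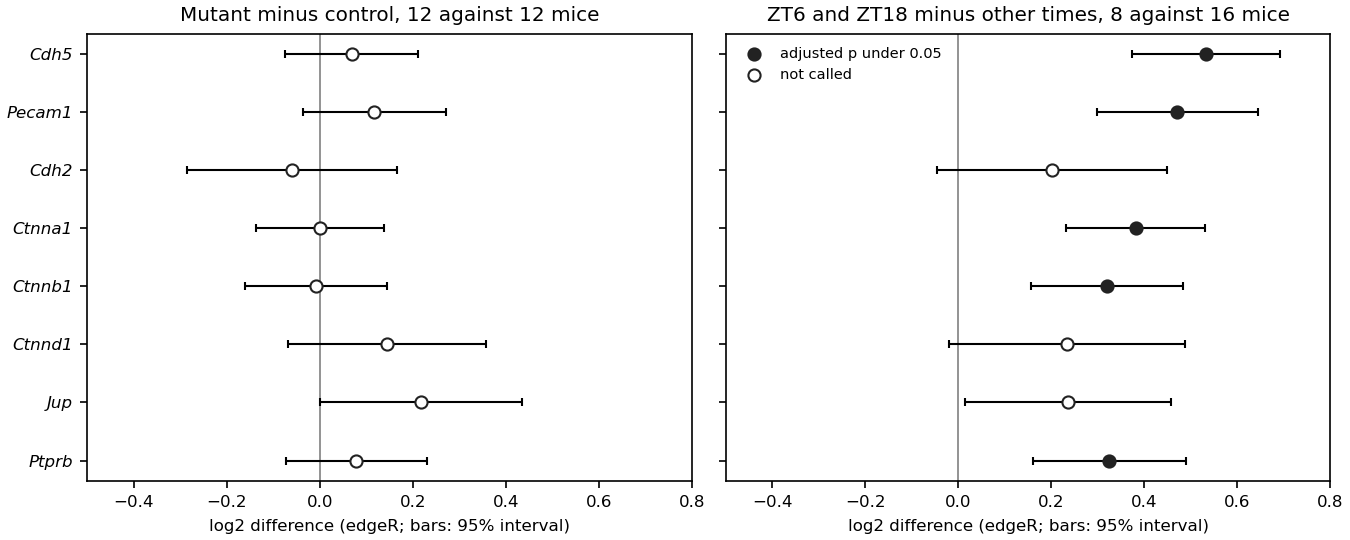
Log2 differences of the 8 members by edgeR (points) with 95% intervals (bars), on the left for mutants against controls (12 mice each) and on the right for ZT6 and ZT18 libraries against the others (8 and 16 mice). Filled points have an adjusted p under 0.05. On the left no point is filled and Jup lies farthest from 0 at 0.22, and on the right 5 points are filled, from 0.32 (Ctnnb1 and Ptprb) to 0.53 (Cdh5).

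Whether the course over the day differed between genotypes was tested by letting a 24-h cosine and sine depend on genotype (an interaction term). In this test 0% of genes (0 of 15493) passed an adjusted p of 0.05 and 4.26% had an unadjusted p under 0.05, and among the 8 members this held for 1, Jup (p = 0.0236, adjusted p = 1.00, edgeR; DESeq2 also called 0 of 8). Plakoglobin reads in controls were 1353 and 1224 (ZT2), 1193 and 1220 (ZT6), 902 and 1034 (ZT10), 808 and 786 (ZT14), 1089 and 1303 (ZT18), then 1280 and 906 (ZT22). In mutants they were 941 and 1057 (ZT2), 979 and 1792 (ZT6), 1054 and 1147 (ZT10), 1742 and 1378 (ZT14), 1611 and 1295 (ZT18), then 1107 and 1181 (ZT22). Controls were above mutants at ZT2 and below them at ZT10 and ZT14, without overlap of the 2 mice each (orders held by 18.8%, 15.5% and 26.0% of all genes), and the mutant mean at ZT14 was 1.96 times the control mean. The library numbers of the ZT14 mutants lie apart from those of the ZT14 controls, so genotype and library series cannot be told apart there. The unadjusted p for Jup was 0.0427 by an exact permutation of genotype within time points and 0.000798 by edgeR without the ZT6 and ZT18 libraries (adjusted p = 0.392). The amplitude of the cosine fitted to the log2 difference between genotypes was 0.48 for Jup and 0.03 (Ptprb) to 0.25 (Pecam1) for the other 7, whose unadjusted p-values were 0.271 to 0.990 by edgeR and 0.104 to 0.952 by the exact permutation.

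The order of the genotypes at single time points is given as a description. At ZT14, both mutants lay above both controls for 6 of 8 members (Cdh5, Pecam1, Ctnna1, Ctnnb1, Jup and Ptprb), and the same was true of 26.0% of all genes tested. For Ctnnb1 the controls had 4087 and 4067 reads and the mutants 5648 and 4939, and for Pecam1 the controls had 5441 and 5258 and the mutants 7420 and 6808. At ZT2 the order was the reverse for 5 of 8 members (Cdh5, Pecam1, Ctnna1, Ctnnb1 and Jup), with controls above mutants in 18.8% of all genes, while Ctnnd1 had 261 and 202 reads in controls and 353 and 322 in mutants, an order seen in 16.9% of all genes. The endothelial markers moved with these differences. They took 1.40% to 1.52% of reads in controls and 1.67% to 1.71% in mutants at ZT14, and at ZT2 1.40% to 1.57% in controls, with both mutants lower (the lowest at 1.29%). The TMM factors of the 2 control libraries of ZT14 were 0.873 and 0.896, against 0.957 to 1.04 in the other 22. With reads scaled by these factors, mutants lay above controls at ZT14 without overlap for 4 of 8 members (Cdh5, Pecam1, Ctnnb1 and Jup) and 21.2% of all genes, Ctnna1 and Ptprb overlapped, and both mutant values of Ctnnd1 lay below both control values, as in 19.6% of all genes. On the same scale, controls lay above mutants at ZT2 for 4 of 8 members (Cdh5, Pecam1, Ctnnb1 and Jup) and 17.4% of all genes. Per 1000 reads of the marker sum, Jup at ZT14 had 7.82 to 8.70 reads in controls and 12.6 to 16.7 in mutants, Ctnnb1 had 40.5 to 44.0 and 45.2 to 54.1, and Pecam1 had 52.3 to 58.6 and 62.4 to 71.0, still without overlap, as in 19.4% of all genes. Both mutant values of Cdh2 and Ctnnd1 lay below both control values on that scale, as in 21.0% of all genes. Cdh5, Ctnna1 and Ptprb overlapped on that scale. At ZT2 all 5 members that had been higher in controls overlapped per 1000 marker reads, with Jup at 12.2 to 15.1 in controls and at most 12.7 in mutants and Ctnnb1 at 55.5 to 66.9 and 55.4 to 61.4, while Ctnnd1 did not (2.02 to 2.92 and 3.86 to 4.14, with mutants higher as in 25.7% of all genes). At ZT10, where reads gave 1 member higher in either genotype, mutants lay above controls per 1000 marker reads for 4 of 8 members (Cdh5, Pecam1, Jup and Ptprb) and 18.6% of all genes. At ZT2 and ZT10 the i5 index differed between the genotypes and at ZT14 it did not. The library numbers of both ZT14 mutants form a run with that of 1 ZT2 control, apart from those of the ZT14 controls. Genotype and library series therefore cannot be told apart at ZT14. With 2 mice a group the smallest p that an exact test of a single time point can give is 0.333.

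The clock protein BMAL1 binds with its partner CLOCK to E-boxes in DNA, of the letters CACGTG, and the sequence before the start of Jup is shown because Jup had the smallest p among members in the test of its course between genotypes (adjusted p = 1.00, edgeR), beside those of its relative Ctnnb1 and of Ctnnd1. RefSeq promoter windows (GRCm38.p6, 250 bases before to 50 after a start) were at hand for 3 of the 8 members, with 1 start for Jup and 2 each for Ctnnb1 and Ctnnd1. The upstream start of Ctnnd1 lies outside the gene model given above for its reads, which begins at chr2:84650765 on the minus strand. The bases before its other start (chr2:84650741-84650990), near the start of that model, are not shown. The 250 bases before the start of Jup (chr11:100397791-100398040, minus strand), the upstream start of Ctnnb1 (chr9:120933150-120933399, plus strand) and the upstream start of Ctnnd1 (chr2:84658978-84659227, minus strand) read, from 5′ to 3′, with matches to CANNTG in capitals:
Jup: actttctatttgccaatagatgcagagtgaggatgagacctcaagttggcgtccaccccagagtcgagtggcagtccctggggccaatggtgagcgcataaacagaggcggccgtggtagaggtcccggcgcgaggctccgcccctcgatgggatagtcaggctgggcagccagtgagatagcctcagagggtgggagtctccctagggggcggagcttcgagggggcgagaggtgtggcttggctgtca
Ctnnb1: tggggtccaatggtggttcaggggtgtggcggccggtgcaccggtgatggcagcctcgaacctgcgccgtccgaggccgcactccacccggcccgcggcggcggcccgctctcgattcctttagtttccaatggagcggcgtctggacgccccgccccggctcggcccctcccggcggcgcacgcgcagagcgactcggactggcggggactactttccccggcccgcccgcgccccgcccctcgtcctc
Ctnnd1: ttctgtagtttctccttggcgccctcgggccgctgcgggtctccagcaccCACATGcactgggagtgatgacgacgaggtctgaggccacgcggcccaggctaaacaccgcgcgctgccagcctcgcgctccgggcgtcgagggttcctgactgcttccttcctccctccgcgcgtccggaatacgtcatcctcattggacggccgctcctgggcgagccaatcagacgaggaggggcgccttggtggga
None of the 5 windows of 300 bases held CACGTG, which 7.15% of 32851 RefSeq promoter windows of that length hold. CACGTG reads the same on both strands and is one of the forms of CANNTG, which was found once, in the upstream window of Ctnnd1, and is held by 72.3% of all windows. G and C made up 62.0% of the bases shown for Jup, 74.8% for Ctnnb1 and 66.8% for Ctnnd1. A match or its absence describes these letters only and is no measure of binding.

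How alike the members ran over the 24 libraries was measured as the SD of the log2 ratio between 2 genes, a description in which library composition, scaling and depth are shared. Cdh5 and Pecam1 were most alike, with an SD of 0.12, and only 1 of 7704 genes with a mean of 100 or more reads, Tek (0.11), ran closer to Cdh5. Tek codes for Tie2, whose promoter drives the Cre of the mutants, and it was also the gene most like Pecam1 (0.11). Next to it came Slc6a6, the taurine transporter, for both (0.14 each), and then Kdr, VEGF receptor 2, for Cdh5 (0.14) and Vat1 for Pecam1 (0.15). The median SD over all these genes was 0.42 for either. Among the catenins, Ctnna1 and Ctnnb1 had an SD of 0.16. Ctnna1 ran closest to Abcb1a, the efflux transporter P-glycoprotein (0.12), Myl12a (0.12) and Flt1, VEGF receptor 1 (0.12), and Ctnnb1 to Adgrf5 (0.14), Rab11b (0.15) and Gnai2 (0.15).

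Ptprb ran closest to Adgrf5, an adhesion receptor of endothelial cells (0.10), She (0.13) and Foxp1 (0.13). Jup ran closest to Elk3, an ETS factor (0.18), Tecpr1 (0.19) and Rapgef1, a Rap1 exchange factor (0.19). Cdh2 was nearest to Mpdz, a scaffold with PDZ domains (0.14), with Sp1 at 0.21, and Ctnnd1 to Unc13b (0.19), 1810013L24Rik (0.21) and Stim2 (0.21). The largest SD between members was 0.44, between Cdh2 and Jup, and Ctnnd1 had 0.27 to 0.42 against the other 7. Cdh2 and Ctnnd1 had means of 355 and 337 reads, at which counting error alone gives an SD of 0.08 on the log2 scale, against 0.02 for Cdh5. Over the 24 libraries the coefficient of variation of reads was 21.3% for Cdh5, 20.7% for Pecam1, 19.6% for Cdh2, 15.5% for Ctnna1, 15.8% for Ctnnb1, 18.1% for Ctnnd1, 22.3% for Jup and 15.5% for Ptprb.

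**Figure D4:**
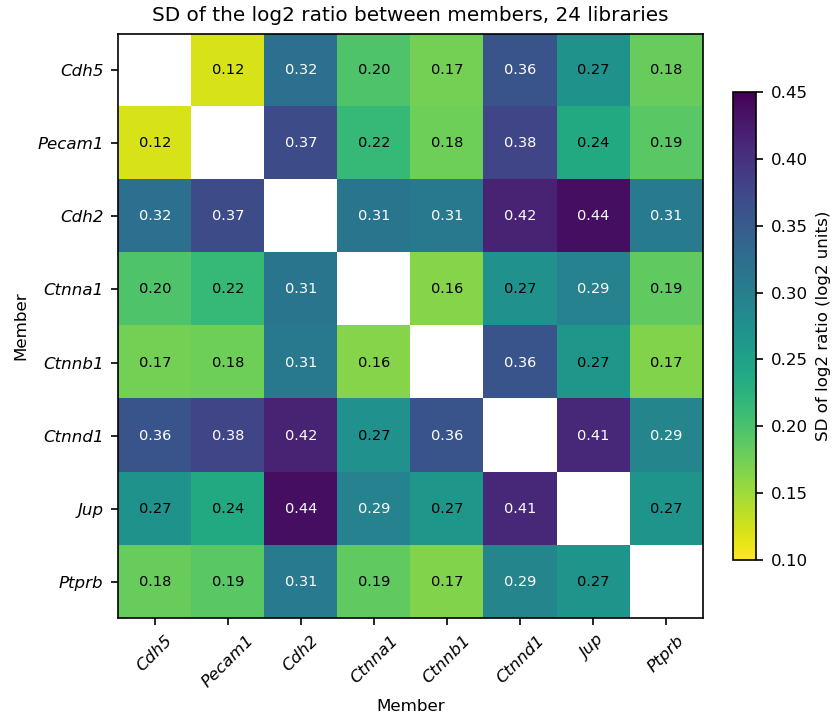
SD of the log2 ratio of reads (reads + 1) between each pair of members over 24 libraries, in log2 units, with light colours for pairs that ran alike. Both axes list the 8 members. Cdh5 and Pecam1 have the smallest value (0.12), and the rows of Cdh2, Ctnnd1 and Jup hold the largest, up to 0.44.

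The other proteins of the junction were followed in 8 lists of 68 genes, of which 67 were listed and 66 passed the filter. In the genotype test 0 of 66 were called by edgeR or by DESeq2, and 10 of 66 (9 higher and 1 lower in mutants) had an unadjusted p under 0.05, against 6.95% of all genes. The smallest p-values were those of Pcdh12, an endothelial protocadherin also called VE-cadherin-2 (log2 difference 0.43, SE 0.15, p = 0.00823, adjusted p = 0.464, edgeR), Nectin3 (0.51, SE 0.20, adjusted p = 0.554) and the receptor phosphatase gene Ptprk (0.25, SE 0.10, adjusted p = 0.554). Pcdh12 had 148 to 640 reads in controls and 251 to 624 in mutants. In controls it was lowest at ZT14 (148 and 177 reads), where the mutants had 388 and 251, and at ZT10 (162 and 239), where the mutants had 382 and 297. Without the ZT6 and ZT18 libraries its log2 difference was 0.75 (SE 0.15, adjusted p = 0.0332, edgeR), and it was then the 1 partner called. With no filter on low counts its adjusted p was 0.0464 (edgeR). With the i5 index as a covariate the log2 difference was 0.35 (p = 0.0778, adjusted p = 0.763), and on the 4 time points at which both genotypes share an index it was 0.35 (p = 0.0975, adjusted p = 0.758).

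Between time points, 27 of 66 partners were called, and 30 of 66 in the contrast of ZT6 and ZT18 with the other times (23 higher and 7 lower), with 23 called in both. Over all genes, 13.4% were called between time points, and 5.85% were higher and 10.9% lower in the contrast. Among the 12 phosphatases, kinases and receptors of the junction, 6 were higher, among them Tek (log2 difference 0.51, SE 0.07, adjusted p = 2.71e-06) and Kdr (0.58, SE 0.10, adjusted p = 3.87e-05), with Fyn, Yes1, Ptprm and Fer, and 2 were lower, Csk (-0.42) and Ptpn1 (-0.39). Of 13 actin linkers and scaffolds 7 were higher, Vcl (vinculin, 0.58, SE 0.10, adjusted p = 3.62e-05), Actn4, Iqgap1, Lima1, Afdn, Actn1 and Cttn, and Plekha7 was lower (-1.46, SE 0.35). All 5 called of the 7 junctional adhesion molecules were higher, Jam3 (0.67), Mcam (0.65), Icam2 (0.50), Jam2 (0.37) and Esam (0.31), as were 3 of 11 genes of the Rap1 and cerebral cavernous malformation list, Arhgap29 (0.41), Rasip1 (0.40) and Heg1 (0.36), and 1 of 8 other cadherins, Pcdh1 (0.25). The nectins gave 1 higher, Pvr (0.53), and 1 lower, Nectin4, which was at 0 reads in 7 of the 8 ZT6 and ZT18 libraries and had 1 to 58 reads (median 29) in the others. Nectin4 passed the filter on low counts only through those other libraries. No conclusion is therefore drawn from its call, which is counted among the 7 lower. Of the 2 shedding proteases neither was called. In the same 8 libraries the endothelial marker sum was 0.34 higher on the log2 scale. Microglia and macrophage markers were lower there, such as Csf1r (median 271.5 against 5394.0 reads). The part of these markers in the differences of the partners was not tested.

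The 3 called of the 8 other catenins were lower. Ctnnd2, a p120 relative best known from neurons, had 45 to 126 reads in the 8 libraries and 74 to 419 in the 16 (log2 difference -1.55, SE 0.25, adjusted p = 1.30e-05, edgeR). Ctnnal1 had 32 to 106 reads against 74 to 422 (-1.40, SE 0.26, adjusted p = 0.000158, edgeR). Ctnna2, the alpha-catenin of neurons, had 0 to 35 reads (median 6.5) against 9 to 139 (median 62). Its adjusted p was 0.00049 by edgeR. It was at 0 reads in 2 of the 8 libraries and lay near the cut of the filter there. No conclusion is therefore drawn from its call, which is counted among the 3. The neuron markers moved with these genes. Their sum took 0.00352% to 0.00621% of reads in the 8 libraries and 0.00476% to 0.0175% in the 16, and 8 of the 9 had a lower median in the 8, such as Snap25 (29 against 147.5 reads) and Syt1 (19.5 against 89.5), while Stmn2 had a higher one (200.0 against 145.5). Their part in the difference of the catenins was not tested. All 5 members called in this contrast were higher. The genes called between time points but not in this contrast were Pard3, Pcdh12, Pcdh17 and Rapgef3, and without the ZT6 and ZT18 libraries Pcdh12 (adjusted p = 0.00873, edgeR) and Pard3 (adjusted p = 0.00684) were the 2 partners called between time points. In the test of a different course between genotypes 0 of 66 partners were called by edgeR or DESeq2 and 4 had an unadjusted p under 0.05 (4.26% of all genes did), with the smallest for Krit1 (p = 0.0018, adjusted p = 1.00), Adam17 (p = 0.0214) and Src (p = 0.0471). By meta2d 0 of 66 partners met q under 0.6 in either genotype, and 1, Rapgef1 in controls (p = 0.0249, fitted peak ZT2.5), had an unadjusted p under 0.05, as had 2.43% of all genes.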

How the data were processed

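Whole-read gene counts, which the authors deposited after normalization, were analysed for 24 libraries. Per the paper's methods and the labels, strand-specific total RNA libraries were aligned to GRCm38 with STAR 2.5.3a on Ensembl annotation, lanes were merged with SAMtools 1.3.1, and PORT normalized and counted reads per gene. The deposited totals are similar between libraries, so the original depth is taken as not kept. Counting error is judged from the normalized reads. No value column was left unmapped.

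Genotype, time point and replicate came from the labels. Counts were tested with edgeR 4.0.16 (R 4.3.3; TMM, quasi-likelihood), with DESeq2 1.42.0 as an alternative, on genes that reached 5 reads in 6 libraries of either genotype, and p-values were adjusted over 15493 genes. Intervals use the SE and residual degrees of freedom (17 for genotype, 21 for ZT6 and ZT18). The biological coefficient of variation was 42.4%. The meta2d test was rewritten in Python 3.11.15 (NumPy 2.4.6, SciPy 1.17.1, pandas 2.3.3, matplotlib 3.10.9) with q under 0.6 as in the paper. Within-library ratios used reads + 1 and exact permutations. Steps were run on simulated data with known changes, as a check of the code. The simulated counts varied less than these data and held no difference in library composition. No error rate for these data follows from them. Exon lengths came from GENCODE vM21.

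The members and lists were chosen with earlier results of these data known. The text names all members, partner genes with an adjusted p under 0.05 or among the 3 smallest p-values of a comparison, and per member the 3 genes with the smallest SD of the log2 ratio, of which 1 is not reported here. Alternatives varied scaling, filter, tool, i5 index, replicate number, length, pseudocount and libraries. The genotype by time point factor, the permutation test of rhythm, unshared exon bases, TMM-scaled and marker-relative reads by time point, the marker-relative values and the order of levels with libraries left out were added after seeing the data.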

Additional observations from a re-analysis of the deposited data

Results flagged for a closer look

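The course of Jup over the day differed between genotypes at an unadjusted p of 0.0236 (edgeR interaction of genotype with a 24-h cosine and sine, 12 mice each), and it was the 1 of 8 members to do so. It failed the correction over all genes (adjusted p = 1.00), and 4.26% of genes reached such a p. Controls had their fitted peak at ZT1.3 and mutants at ZT14.6. At ZT14 both mutants (1742 and 1378 reads) lay above both controls (808 and 786). The library numbers of the ZT14 mutants lie apart from those of the ZT14 controls. Genotype and library series therefore cannot be told apart at that time point. Leaving out 1 library at a time gave unadjusted p-values of 0.00043 (without the mutant ZT6 library of 1792 reads) to 0.0702, and with time points as a factor p was 0.0187.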

How the results depend on the processing

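Depth limits Cdh2 and Ctnnd1 most, with 238 to 545 and 202 to 436 reads, and 2 mice per genotype and time point limit every statement on a single time. Under 33 alternatives 0 members were called for genotype, as for the rhythm difference, and 0 were rhythmic in either genotype under 17 each. The ZT6 and ZT18 contrast called 5 members under all 30 alternatives, and the ratios 0 of 7 under 26. Of the neighbour pairs in the order of levels, 11 to 13 of 14 differed under 27 alternatives. The neighbours were set anew under each, so a like count does not mean a like order. With the length of the longest transcript the order changed, and Pecam1 came first. The i5 covariate was not among the alternatives run for the ZT6 and ZT18 contrast. Every ZT6 and ZT18 library carries the same i5 index, and most of the others carry a different one. The count of 5 members that differed between time points became 3 with DESeq2 size factors and 3 with 10 or more reads in every library (Ctnnb1 and Ptprb were lost), and 0 with the i5 covariate or without the ZT6 and ZT18 libraries. Leaving out 1 library gave 3 to 6, and 3 (Cdh5, Ctnna1 and Pecam1) without control ZT6 replicate 1 or 2, ZT14 replicate 2 or ZT18 replicate 1, or mutant ZT2 replicate 2, ZT6 replicate 1 or 2, ZT10 replicate 2, ZT18 replicate 2 or ZT22 replicate 2. The cause was not tested.

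Near-zero genotype differences turned sign. Ctnna1 gave -0.0029 with DESeq2 size factors, -0.0016 with no filter, -0.0052 with 10 or more reads, -0.0027 in DESeq2, -0.0017 with the replicate block and -0.044 without ZT6 and ZT18 (libraries left out singly: -0.020 to 0.031). Ctnnb1 gave 0.0016 unscaled, 0.057 with the i5 covariate, 0.057 on ZT6, ZT14, ZT18 and ZT22 only and 0.038 without ZT6 and ZT18 (-0.041 to 0.040). The Ctnna1 to Ctnnb1 ratio gave -0.092 without ZT6 and ZT18 (-0.025 to 0.029), and Ptprb to Cdh5 -0.0085 to 0.043. Same-numbered mice did not deviate together (correlations -0.0082 to 0.016), so no pairing by number was seen in the reads. Whether the number stands for the independent experiments of the study is not given in the sources used here. With the replicate number as a block in edgeR, 4 members differed between time points. Ctnnb1 (adjusted p = 0.0524) and Ptprb (0.0509) dropped out and Ctnnd1 (0.0359) entered, and no other member's call changed. Over all genes, calls for genotype moved from 42 of 15493 to 141 of 25174 with no filter. They were 99 in DESeq2, 7 with the i5 covariate, 28 without ZT6 and ZT18 and 10 on the 4 time points. When 1 library was left out they were 25 (without mutant ZT6 replicate 2) to 68 (without mutant ZT6 replicate 1). Calls for the rhythm difference moved from 0 to at most 52 of 25174 (no filter). Those between time points moved from 2070 to 1041 (i5) and 176 (without ZT6 and ZT18). In the ZT6 and ZT18 contrast 2595 of 15493 genes were called. With 10 or more reads in every library, where fewer genes were tested, 1624 of 9863 were. Rhythmic genes at q under 0.6 moved from 48 to between 0 and 133 (edgeR cosinor) in controls and from 6 to between 0 and 56 (JTK_CYCLE alone) in mutants.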
